A study of Mus musculus with 89 samples.

Results

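Il33 and the type 2 cytokine axis were followed across 89 microarrays of mouse lung. The 10 genes named for this axis were Il33, Il1rl1, Tslp, Il4, Il5, Il13, Il4ra, Il13ra1, Il13ra2 and Stat6, of 17097 genes that the arrays could be paired with by name. A probe set was found here for 9 of them, and Il1rl1 is not analysed here. Each gene was read from its probe set with the highest mean over all arrays. Il13ra1 had 5 probe sets and the other 8 genes had 1 each. All levels are deposited log2 signals, so that a difference of 1 is a doubling of signal.

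IL-33 and TSLP are alarmins, cytokines that epithelial and stromal cells give off on injury. IL-33 acts on ST2, the product of Il1rl1, and TSLP on a receptor of its own, and both drive innate lymphoid cells, mast cells, basophils and T helper cells to make IL-4, IL-5 and IL-13. IL-4 and IL-13 signal through the receptor chain encoded by Il4ra, which IL-13 joins through the chain encoded by Il13ra1, to the transcription factor STAT6. The product of Il13ra2 binds IL-13 tightly and is known as a decoy. In the lung this axis drives mucus production, eosinophil recruitment and alternative activation of macrophages, and alveolar type 2 cells are a known source of IL-33 in mice.

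The RNA came from the left lobe of the lungs of male mice aged 7 to 8 weeks, labelled as whole lung homogenate, in 18 groups of 2 to 6 arrays. There were 3 strains, namely C57BL/6, BALB/c and SP-D-/-, which lacks the collectin surfactant protein D, encoded by Sftpd. Each strain was given air, ozone, or the mould Aspergillus fumigatus (Af) followed by air or ozone. Ozone exposure was 3 ppm for 2 h, air was the control exposure, and lungs were taken 12 h after either. Af mice were sensitised on days 0 and 7 and challenged in the nose on day 13. They were studied 24 h after challenge with air (Af 24 h), 96 h after it with ozone (Af 96 h plus ozone), and 168 h after it with air or with ozone (Af 168 h plus air, Af 168 h plus ozone). In the order C57BL/6, SP-D-/- and BALB/c there were 6, 5 and 5 arrays in air, 6, 4 and 2 after ozone, 4, 6 and 5 at Af 24 h, 5, 6 and 6 at Af 96 h plus ozone, 4, 5 and 6 at Af 168 h plus air, and 6, 4 and 4 at Af 168 h plus ozone. The Af groups with air were compared with air, and the Af groups with ozone were compared with ozone alone. Comparisons within a strain share these controls. The labels give replicate numbers but do not say that the arrays are separate animals, so p-values measure the spread between arrays.

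Some arrays stood apart by measures taken from genes other than the members and from control probe sets. On 6 arrays Sftpd or a strain index of 40 genes went against the label, and these are called the doubted arrays. They were labelled BALB/c Af 24 h replicates 4 and 5, BALB/c Af 168 h plus ozone replicate 6, C57BL/6 Af 96 h plus ozone replicate 1, C57BL/6 Af 168 h plus ozone replicate 5 and SP-D-/- Af 96 h plus ozone replicate 1. Sftpd was 8.79 and 7.68 on the first pair, under the minimum of 9 set for wild-type labels. It was 5.59 on the array labelled BALB/c Af 168 h plus ozone replicate 6 and 10.94 on that labelled SP-D-/- Af 96 h plus ozone replicate 1. The strain index was 0.71 on the array labelled C57BL/6 Af 96 h plus ozone replicate 1, on the BALB/c side, and 0.02 on the array labelled C57BL/6 Af 168 h plus ozone replicate 5, at the border. The spike level, the mean of 10 hybridization control probe sets, ran from 7.86 to 11.76 over the arrays and differed between groups. It averaged 8.59 in C57BL/6 with ozone and 10.90 in C57BL/6 at Af 96 h plus ozone. The actin difference, 3' minus 5' signal and a sign of RNA quality, averaged between 1.59 and 1.88 in the 3 air groups, between 2.46 and 3.08 in the Af groups, and 1.72, 2.75 and 2.16 with ozone in C57BL/6, SP-D-/- and BALB/c. Each change is therefore given from all arrays and, where it matters, from a spike-adjusted fit of 83 arrays, which leaves out the doubted arrays and takes the spike level as a covariate.

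Il5 stayed near background in every group. Background was taken as the 40th percentile of all values, 4.45. The Il5 group means lay between 3.42 and 3.83 and 1 of 89 arrays was above that level, so Il5 was too low to be tested. Il4 passed it as a group mean only in C57BL/6 at Af 24 h, Il4ra in 6 of 18 groups, Il13ra2 in 7, Il13 in 12 and Tslp in 16. Il33, Il13ra1 and Stat6 were above it in all 18 groups. A stricter standard, the 95th percentile of 83 probe sets of olfactory and vomeronasal receptor genes, was 6.26. By that standard Il4, Il5, Il13, Il4ra, Il13ra2 and Stat6 stayed under it in all 18 groups, Tslp passed it in 2 groups, Il13ra1 in 16 and Il33 in 18. The non-specific control probe sets averaged 2.19. Levels of different probe sets depend on their affinity, so members are compared between groups and not with each other, and changes of a gene near background are approximate in size.

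Il13 was the member that rose with the allergen in all 3 strains at 24 h. It rose by 1.29 ± 0.27 (log2 change ± SE, limma adjusted p = 0.0009245) in C57BL/6, by 0.86 ± 0.26 (adjusted p = 0.0344) in SP-D-/- and by 0.98 ± 0.27 (adjusted p = 0.00998) in BALB/c. Calls were made at an adjusted p under 0.05, adjusted over the 15065 genes tested. At Af 24 h 5 of the 8 tested members were called in C57BL/6, 1 in SP-D-/- and 2 in BALB/c, where 16.2%, 4.71% and 12.1% of all genes tested were called. At Af 96 h plus ozone against ozone 4 members were called in C57BL/6, where 36.4% of all genes were called, and 0 in SP-D-/- and in BALB/c, where 2.58% and 0.0531% were. At Af 168 h plus ozone against ozone 1 member was called in C57BL/6 (16.5% of all genes) and 0 in SP-D-/- (3.18%) and BALB/c (0.00664%). Ozone against air called 0 members (limma) in C57BL/6, SP-D-/- and BALB/c, where 0.0266%, 0.0996% and 0.0133% of all genes were called. With an unadjusted p under 0.05 there were 187, 2511 and 157 genes. With all arrays, ozone against air at Af 168 h and Af 168 h plus air against Af 24 h called 0 members in each strain, with between 0.0199% and 4.36% of all genes called. Af 168 h plus air against air also called 0 members in the 3 strains (1.35%, 1.35% and 1.56% of all genes called). The spike-adjusted fit called 3, 1 and 3 members at Af 24 h in C57BL/6, SP-D-/- and BALB/c, with 15.7%, 7.24% and 8.99% of all genes called. In these strains it called 3, 0 and 0 members at Af 96 h plus ozone, with 17.1%, 2.26% and 0.179% of all genes called. It called 0 members in each strain for ozone against air (0.0597%, 0.0597% and 0.0133%), for Af 168 h plus air against air (5.77%, 4.48% and 2.23%) and for Af 168 h plus ozone against ozone (9.65%, 10.3% and 0.0133%). For ozone against air at Af 168 h it also called 0 members (0.0133%, 2.29% and 0% of all genes), and 0 for Af 168 h plus air against Af 24 h (0.385%, 3.46% and 2.56%). Against a background of 36.4%, 4 of 8 members called in C57BL/6 at Af 96 h plus ozone is a share close to that of all genes.

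**Figure D1:**
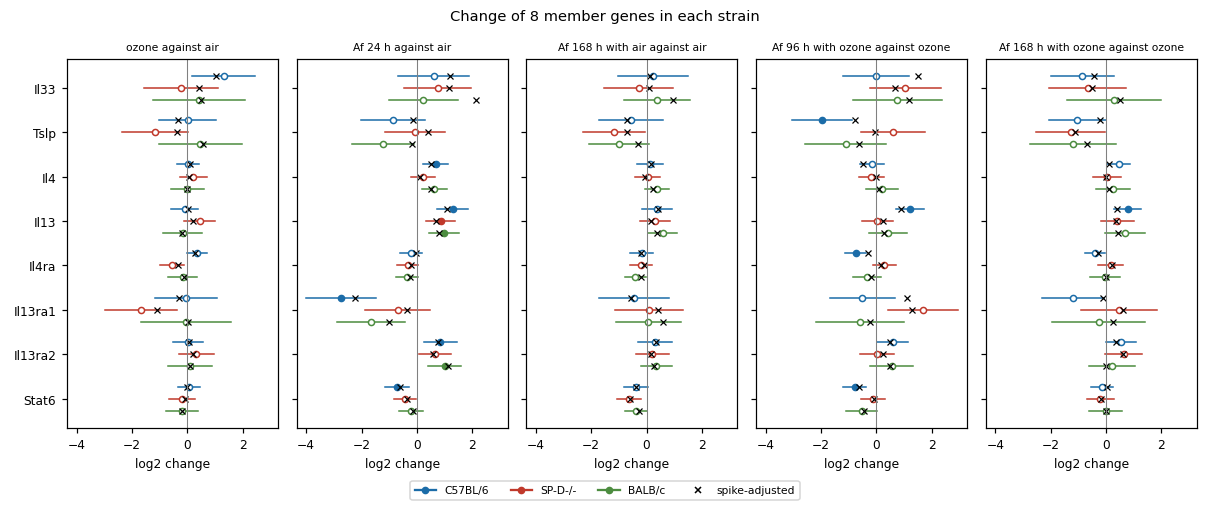
Log2 change (horizontal axis) of the 8 tested members in 5 comparisons within each strain. Circles with bars are the change and its 95% confidence interval from all arrays, filled where the adjusted p was under 0.05, and crosses are the spike-adjusted change. Il13 is filled in all 3 strains at Af 24 h, and Il13ra1 in C57BL/6 at Af 24 h lies at -2.74.

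Il33, the alarmin of the set, was high in all groups. In C57BL/6 it was 7.27 to 8.08 in air (median 7.84, n = 6) and 8.56 to 9.57 with ozone (median 9.03, n = 6). Every ozone array was above every air array. How many of all genes separate so, here or where no overlap is reported below, was not counted. The change was 1.32 ± 0.57, a 2.49-fold higher signal with a 95% interval of 0.18 to 2.46, and it was not called with the spread shared by all 89 arrays (adjusted p = 1.0). In a fit of those 12 arrays alone the change was the same and passed (adjusted p = 0.00837). The share of all genes called in that fit is not given here. Of 9 other settings 2 called this change, that fit among them, and 7 did not, the spike-adjusted fit among those. With all arrays none of 6 measured alveolar type 2 markers was called in this comparison, where 0.0266% of all genes were called. Their mean level was 10.61 in air and 10.50 with ozone, and their part in the level of Il33 was not tested. In SP-D-/- Il33 was 8.02, 9.14, 8.24, 8.16 and 8.27 in air and 8.11, 8.65, 8.39 and 7.40 with ozone, and the groups overlapped (change -0.23 ± 0.67, adjusted p = 0.879). In BALB/c it was 8.16, 7.80, 7.91, 7.47 and 7.37 in air and 7.95 and 8.40 with ozone (change 0.43 ± 0.83, adjusted p = 0.9998). The ozone responses of SP-D-/- and C57BL/6 were not shown to differ, since limma's test of that difference called 0 genes, with 1157 genes under an unadjusted p of 0.05.

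After allergen challenge Il33 was spread widely in 2 of the 24 h groups. In C57BL/6 at Af 24 h it was 5.02, 10.31, 8.83 and 9.42, so that 3 arrays were above all air arrays and replicate 1 was below them (change 0.60 ± 0.64, adjusted p = 0.521). Without replicate 1 the change was 1.73 (adjusted p = 0.0833). That array had a spike level of 11.76, the highest of all 89, and alveolar type 2 markers at 9.96, between 9.90 and 10.25 on the other 3. Its fibroblast markers averaged 5.71, the lowest of the 89 arrays, against 7.39 to 8.09 on the other 3, and their part in the level of Il33 was not tested. In BALB/c at Af 24 h Il33 was 9.62, 9.22 and 10.10 on replicates 1 to 3 and 6.58 and 4.38 on the arrays labelled replicates 4 and 5. The first 3 were above all BALB/c air arrays. With all 5 arrays the change was 0.24 ± 0.63 (adjusted p = 0.824), and without the doubted arrays it was 1.90 (adjusted p = 0.0454). Il33 rose by 2.12 ± 0.50 there in the spike-adjusted fit (adjusted p = 0.00323), with 8.99% of all genes called. The rises of 1.90 and 2.12 do not include replicates 4 and 5, which were doubted for low Sftpd (8.79 and 7.68). Their strain index, 0.17 and 0.56, was on the BALB/c side. Alveolar type 2 markers averaged 8.88 and 7.71 on them, against 10.05 to 10.51 on replicates 1 to 3. They also had the lowest Il33 of the group, so a rise without them cannot be told from the choice of arrays. On the array labelled replicate 5 alveolar type 2 markers averaged 7.71 and club cell markers 6.18, each the lowest of the 89 arrays, and their part in the level of Il33 was not tested. In SP-D-/- at Af 24 h Il33 was 7.92 to 9.72 (median 9.17, n = 6), overlapping air (change 0.75 ± 0.60, adjusted p = 0.513, and 1.15 ± 0.42 with adjusted p = 0.0818 in the spike-adjusted fit).

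At Af 96 h plus ozone Il33 was 7.94, 9.49, 10.14, 9.04 and 8.96 in C57BL/6, the first of these on the doubted array. That equalled ozone alone in mean (change 0.01 ± 0.60, adjusted p = 0.995). With the spike adjustment it was 1.505 ± 0.49 higher (adjusted p = 0.023), a call that neither step gave alone. The change was 0.30 without the doubted arrays (adjusted p = 0.666) and 1.13 when all arrays were kept and only the spike level was added (adjusted p = 0.195). It was 8.28 to 9.72 (median 9.35, n = 6) in SP-D-/- and 7.69 to 9.98 (median 8.96, n = 6) in BALB/c, with changes of 1.05 ± 0.64 (adjusted p = 0.362) and 0.76 ± 0.81 (adjusted p = 0.9997). By Af 168 h plus air it was 7.78, 8.70, 7.50 and 8.12 in C57BL/6, 8.54, 7.80, 8.32, 8.69 and 7.07 in SP-D-/- and 6.63 to 9.17 in BALB/c (median 8.09, n = 6). Each of these groups overlapped its air group. Between Af 96 h and Af 168 h plus ozone 0 members were called in C57BL/6 with all arrays (1.82% of all genes), and Il33 had -0.87 ± 0.60 (adjusted p = 0.465). With the spike adjustment it fell by 1.93 ± 0.48 (adjusted p = 0.0104), the 1 member called, with 4.45% of all genes called.

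Ordered by mean, Il33 was highest in SP-D-/- at Af 96 h plus ozone (9.19 ± 0.57, SD, n = 6), followed by C57BL/6 at Af 96 h plus ozone (9.11 ± 0.81, n = 5), SP-D-/- at Af 24 h (9.11 ± 0.64, n = 6) and C57BL/6 with ozone (9.11 ± 0.38, n = 6). It was lowest in SP-D-/- at Af 168 h plus ozone (7.48 ± 0.86, n = 4), BALB/c in air (7.74 ± 0.33, n = 5) and C57BL/6 in air (7.79 ± 0.27, n = 6). No group differed from the next in this order by more than the larger of their SDs. The same held for all 17 steps in the order of each of the other 8 members. Steps between neighbours in such an order are small by construction, so this does not compare groups farther apart.

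**Figure D2:**
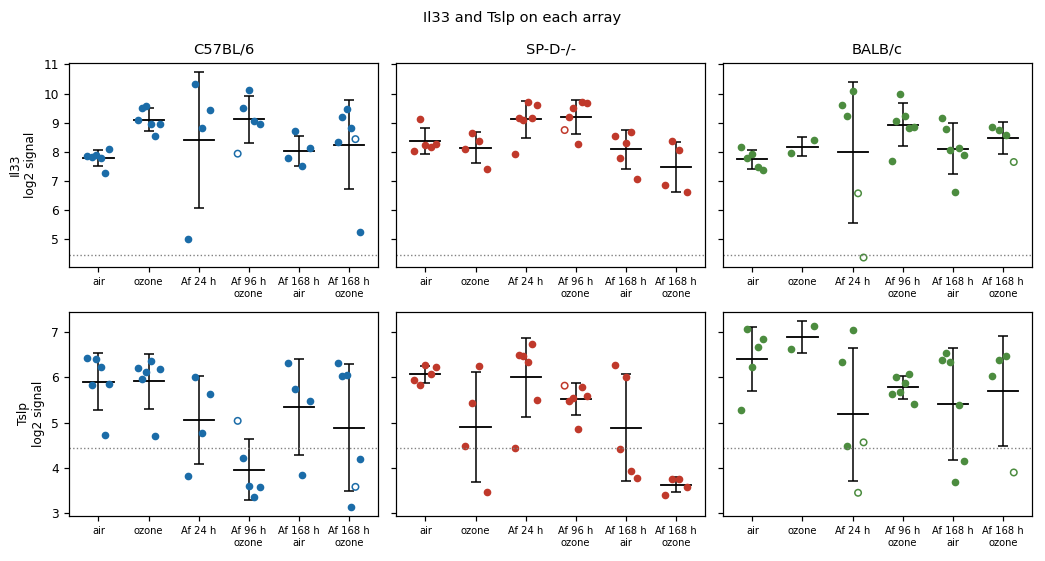
Deposited log2 signal of Il33 and Tslp (vertical axes) on each array, by strain and exposure. Points are arrays, open points the doubted arrays, bars the group mean and SD, and the dotted line the background level of 4.45. Il33 lies above the line on 88 of 89 arrays, and Tslp falls below it on several arrays of the Af groups.

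Tslp, the other alarmin, fell in C57BL/6 at Af 96 h plus ozone. It was 4.70 to 6.35 with ozone alone (median 6.15, n = 6) and 5.04, 4.22, 3.60, 3.37 and 3.58 at Af 96 h plus ozone, where the 4 arrays that were not doubted lay below every ozone array. It fell by 1.96 ± 0.54 (adjusted p = 0.00413). The spike level of the 2 groups averaged 8.59 and 10.90, and in the spike-adjusted fit the change was -0.76 ± 0.42 (adjusted p = 0.224). In SP-D-/- it was 4.48, 5.43, 6.25 and 3.46 with ozone and 4.85 to 5.82 at Af 96 h plus ozone (median 5.57, n = 6), with a change of 0.61 ± 0.58 (adjusted p = 0.574). In BALB/c it was 6.64 and 7.14 with ozone and 5.40 to 6.09 at Af 96 h plus ozone (median 5.77, n = 6), all below both ozone arrays, and the change of -1.11 ± 0.73 was not called (adjusted p = 0.9997).

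In air Tslp was 4.73 to 6.42 in C57BL/6 (median 6.03, n = 6), 5.94, 5.83, 6.27, 6.08 and 6.22 in SP-D-/- and 5.28, 7.06, 6.22, 6.66 and 6.84 in BALB/c. At Af 24 h its changes were -0.85 ± 0.58, -0.07 ± 0.54 and -1.23 ± 0.57 in these strains (adjusted p = 0.29, 0.953 and 0.138). The lowest group of all was SP-D-/- at Af 168 h plus ozone, at 3.40, 3.76, 3.76 and 3.59, all under the background level and all below the 6 SP-D-/- arrays at Af 96 h plus ozone. Against those Tslp fell by 1.89 ± 0.58 (adjusted p = 0.0246), the 1 member called there, with 15% of all genes called. The spike-adjusted change was -1.08 ± 0.41 (adjusted p = 0.0887, with 5.91% of all genes called), and the call was lost without Af 168 h replicate 1 or 6 (adjusted p up to 0.153). In BALB/c 0 members were called between these times, with 0.0465% of all genes called, or 0.0797% in the spike-adjusted fit. Il33 on the same SP-D-/- arrays had -1.71 ± 0.64 (adjusted p = 0.0543). In the fit without all 6 doubted arrays it had -1.80 (adjusted p = 0.0202). That fit leaves out SP-D-/- Af 96 h plus ozone replicate 1, and also doubted arrays of other groups, which changes the shared spread.

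Il13, made by T helper and innate lymphoid cells, stayed close to the background level in unchallenged lungs. It was 3.88 to 4.50 in C57BL/6 air (median 4.03, n = 6), 4.12, 4.09, 3.99, 3.78 and 4.09 in SP-D-/- air and 4.13, 4.16, 4.06, 4.20 and 4.43 in BALB/c air. At Af 24 h it was 5.42, 6.05, 5.10 and 4.999 in C57BL/6, and 5.05, 4.89, 5.35, 5.81 and 4.81 in BALB/c. In both strains every challenged array was above every air array. In SP-D-/- it was 4.10 to 5.55 (median 4.94, n = 6), where 5 of 6 arrays were above all air arrays. The rises were 2.45-fold, 1.81-fold in SP-D-/- and 1.98-fold in BALB/c. They remained in the spike-adjusted fit, at 1.07 ± 0.23, 0.71 ± 0.21 and 0.82 ± 0.25 in C57BL/6, SP-D-/- and BALB/c (adjusted p = 0.000548, 0.0224 and 0.0259). The SP-D-/- call was lost without any of air replicates 2 to 6 or Af 24 h replicates 1, 4 and 6 (adjusted p up to 0.138), and the BALB/c call without Af 24 h replicate 4 (adjusted p = 0.0623). In bulk lung, more cells that make a transcript and more transcript per cell cannot be told apart. No T cell marker of 6 tested was called at Af 24 h in C57BL/6, SP-D-/- and BALB/c with all arrays. The shares of all genes called were 16.2%, 4.71% and 12.1%. Eosinophil and mast cell markers averaged between 4.18 and 4.47 in these groups. Mcpt8, a basophil protease named after its values were seen and the 1 basophil marker tested, rose by 1.34 in SP-D-/- and by 1.34 in BALB/c and had 0.65 in C57BL/6, which was not called. The part of these cells in the Il13 signal was not tested.

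Il13 was also higher at Af 96 h plus ozone than with ozone alone in C57BL/6. It was 3.68 to 4.61 with ozone (median 4.03, n = 6) and 4.73, 5.14, 5.46, 5.79 and 5.08 at Af 96 h plus ozone, with no overlap. It rose by 1.23 ± 0.26 (adjusted p = 0.000223), and by 0.90 ± 0.24 in the spike-adjusted fit (adjusted p = 0.00539). In SP-D-/- it was 4.37, 3.85, 4.47 and 5.15 with ozone and 4.28 to 4.69 at Af 96 h plus ozone (median 4.54, n = 6), a change of 0.04 ± 0.27 (adjusted p = 0.947). In BALB/c it was 4.02 and 4.05 with ozone and 4.16 to 4.92 at Af 96 h plus ozone (median 4.41, n = 6), a change of 0.44 ± 0.35 (adjusted p = 0.9997). At Af 168 h plus air it was 4.26, 4.40, 4.61 and 4.61 in C57BL/6 and 4.27, 4.08, 4.22, 4.51 and 4.56 in SP-D-/-. It was 4.44 to 5.19 in BALB/c (median 4.73, n = 6), above every BALB/c air array, and was not called (0.58 ± 0.26, adjusted p = 0.26). At Af 168 h plus ozone in C57BL/6 Il13 was 3.89, 4.26 and 4.22 on replicates 1 to 3 and 5.66, 5.89 and 4.92 on replicates 4 to 6. It rose there by 0.79 ± 0.25 against ozone (adjusted p = 0.0212), and by 0.57 without the doubted replicate 5, which was not called (adjusted p = 0.104). It was also lost without ozone replicate 3 or 4 or Af 168 h replicate 4 or 6 (adjusted p up to 0.142). The spike-adjusted change was 0.40 ± 0.21 (adjusted p = 0.238).

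Il4, the cytokine encoded beside Il13, stayed under the background level in 17 of 18 groups. In RefSeq (GRCm38.p6) Il4, Il13, Rad50 and Il5 follow each other as neighbouring protein-coding genes on chromosome 11. In C57BL/6 Il4 was 3.70 to 4.15 in air (median 3.83, n = 6) and 5.92, 4.38, 3.88 and 4.11 at Af 24 h. It rose by 0.68 ± 0.23 (adjusted p = 0.0339), and this call rested on replicate 1, without which the change was 0.23 (adjusted p = 0.583), and it was also lost without air replicate 1, 2, 4 or 6. The spike-adjusted change was 0.53 ± 0.20 (adjusted p = 0.0652). In BALB/c at Af 24 h Il4 was 4.47, 4.16, 4.50, 4.62 and 4.38, all above the air values of 3.76, 3.93, 3.68, 3.83 and 3.81, and it was not called. In SP-D-/- it was 3.83 to 4.23 at Af 24 h (median 3.94, n = 6) and overlapped air. Il5, the eosinophil growth factor, was highest on average in C57BL/6 at Af 24 h, at 3.68, 3.93, 3.96 and 3.74, still under background. Its single array above background was BALB/c Af 168 h plus air replicate 6, at 4.47.

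**Figure D3:**
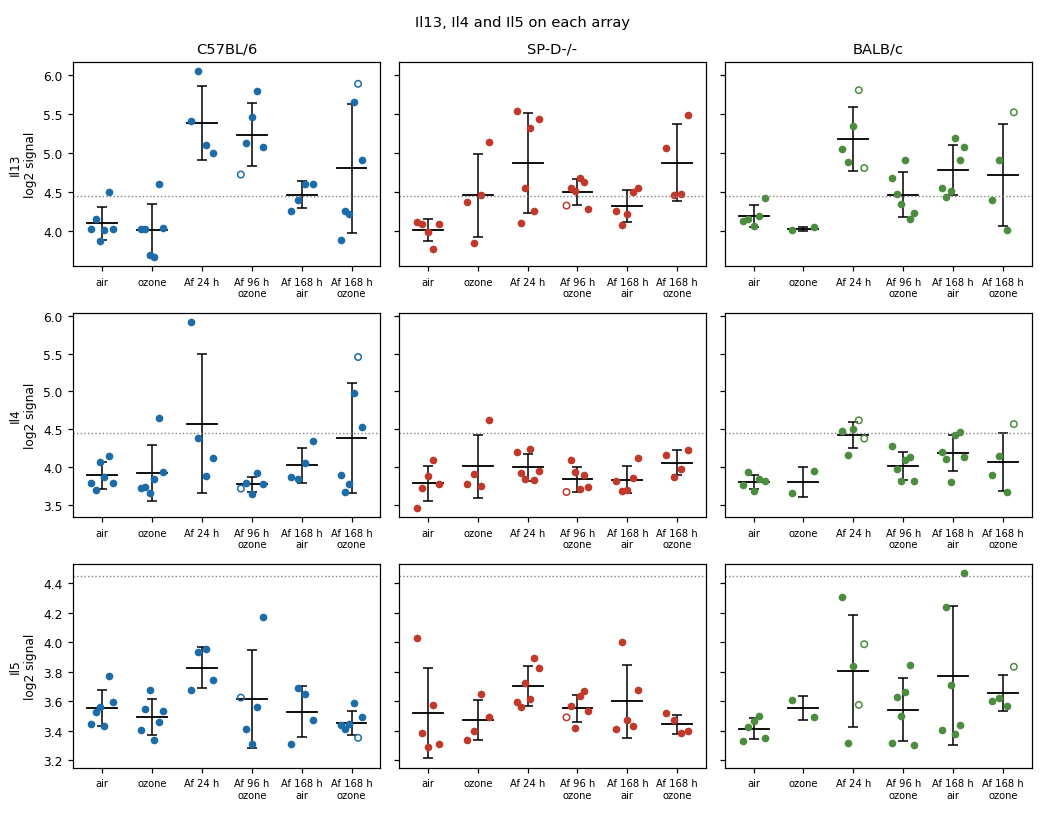
Deposited log2 signal of Il13, Il4 and Il5 (vertical axes) on each array, by strain and exposure. Points are arrays, open points the doubted arrays, bars the group mean and SD, and the dotted line the background level of 4.45. Il13 crosses the line at Af 24 h in all 3 strains, Il4 does so as a mean in 1 group, and Il5 lies below it on all arrays but 1, in BALB/c at Af 168 h plus air.

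The promoters of Il13, Il4 and the decoy receptor gene Il13ra2 are shown, the 3 members called as rising in C57BL/6 at Af 24 h. Il13ra1 and Stat6, called there as falling, are not shown and held none of the motifs below. Each line gives the 250 bases before the start in RefSeq (GRCm38.p6), read 5′ to 3′ on the gene's strand. Capitals mark matches to TTCNNNNGAA (the spacing that STAT6 prefers), to TATAAA (a box found in many core promoters) and to the letters GATAA (the core that GATA3 prefers), searched on both strands. Il4 has 2 starts in that table and is shown at the more upstream one.
Il13, chr11:53634703-53634952, minus strand: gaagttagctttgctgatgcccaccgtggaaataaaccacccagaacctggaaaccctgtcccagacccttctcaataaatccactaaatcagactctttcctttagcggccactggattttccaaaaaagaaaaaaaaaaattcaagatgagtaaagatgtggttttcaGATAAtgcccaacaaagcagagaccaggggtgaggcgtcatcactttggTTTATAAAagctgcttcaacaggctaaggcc
Il4, chr11:53618666-53618915, minus strand: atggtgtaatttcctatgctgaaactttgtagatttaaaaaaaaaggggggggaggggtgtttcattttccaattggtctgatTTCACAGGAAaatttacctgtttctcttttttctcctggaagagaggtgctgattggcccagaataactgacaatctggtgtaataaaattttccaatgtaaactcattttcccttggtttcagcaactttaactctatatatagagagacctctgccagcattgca
Il13ra2, chrX:147429193-147429442, minus strand: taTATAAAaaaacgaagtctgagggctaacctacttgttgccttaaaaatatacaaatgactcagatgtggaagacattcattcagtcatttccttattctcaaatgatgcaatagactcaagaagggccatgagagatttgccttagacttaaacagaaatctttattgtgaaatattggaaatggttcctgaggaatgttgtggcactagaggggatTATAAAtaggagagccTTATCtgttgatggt

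In these windows Il13 held TATAAA starting 29 bases before the start, overlapped by its match on the other strand, and GATAA 80 bases before it. Il13ra2 held TATAAA at 31 and 248 bases and GATAA on the other strand at 15. Il4 held TTCNNNNGAA at 167 bases and neither of the other motifs. Il33 held all 3 motifs at the first of its 2 starts, and none was found for Il5, Il4ra, Il13ra1 or Stat6. The promoter of Tslp was not searched. Among all 32851 promoter windows of the same length TATAAA was found in 12.4%, GATAA in 22.6% and TTCNNNNGAA in 5.85%. These are matches of letters and describe no binding.

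Il13ra1, the receptor chain through which IL-13 engages Il4ra, fell in C57BL/6 at Af 24 h on the probe set used. It was 8.05 to 8.66 in air (median 8.30, n = 6) and 3.27, 7.67, 4.67 and 6.72 at Af 24 h. All 4 challenged arrays were below all air arrays, with a spread of several log2 units among them. It fell by 2.74 ± 0.63 (adjusted p = 0.00207), a 6.70-fold lower signal, and by 2.23 ± 0.45 in the spike-adjusted fit (adjusted p = 0.000369). Without replicate 1 it was -1.97 (adjusted p = 0.056). The 5 probe sets of Il13ra1 did not move alike. A second one gave -2.76 (adjusted p = 0.000807), and the other 3 gave -0.40, -0.11 and 0.08, none of them called, with correlations to the one used of 0.41, 0.37 and 0.12 over 89 arrays, against 0.70 for the second. In BALB/c it was 7.68, 8.12, 8.04, 7.74 and 7.61 in air and 6.92, 6.02, 7.04, 4.51 and 6.43 at Af 24 h, again without overlap, and it was not called. In SP-D-/- it was 7.45, 8.47, 8.27, 8.35 and 8.30 in air and 6.38 to 7.93 at Af 24 h (median 7.68, n = 6). The direct comparison of SP-D-/- with C57BL/6 at Af 24 h gave 1.89 ± 0.63 (adjusted p = 0.267), with 0 members called and 0.0863% of all genes called. It was 1.69 ± 0.44 higher in SP-D-/- in the spike-adjusted fit (adjusted p = 0.0446, with 0.79% of all genes called). Club cell markers fell at the same time, 3 of 5 in C57BL/6, 3 of 5 in SP-D-/- and 5 of 5 in BALB/c. Of all genes tested 16.2%, 4.71% and 12.1% were called in these strains. The part of club cells in the level of Il13ra1 was not tested.

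Il13ra2, the decoy receptor, rose at Af 24 h in C57BL/6 and BALB/c. In BALB/c it was 3.70, 3.99, 3.77, 4.01 and 4.09 in air and 4.77, 4.86, 5.55, 5.17 and 4.23 at Af 24 h, with no overlap. It rose by 1.00 ± 0.30 (adjusted p = 0.0192), and by 1.11 ± 0.33 in the spike-adjusted fit (adjusted p = 0.022). In C57BL/6 it was 3.58 to 4.16 in air (median 3.94, n = 6) and 4.32, 5.46, 4.15 and 5.10 at Af 24 h. It rose by 0.85 ± 0.31 (adjusted p = 0.0446), and the spike-adjusted 0.76 ± 0.30 was not called (adjusted p = 0.0719). The BALB/c call was lost without Af 24 h replicate 3 or 4, and the C57BL/6 call without any of 8 of the 10 arrays (adjusted p up to 0.0626 and 0.147). In SP-D-/- it was 4.50, 4.11, 4.02, 4.04 and 3.76 in air and 3.94 to 5.38 at Af 24 h (median 4.71, n = 6), and it was not called. The highest Il13ra2 signal of all arrays, 6.81, was on SP-D-/- Af 168 h plus ozone replicate 1, where the other 3 arrays had 4.24, 4.26 and 4.88.

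Il4ra, the receptor chain shared by IL-4 and IL-13, fell in C57BL/6 at Af 96 h plus ozone. It was 4.63 to 5.07 with ozone (median 4.80, n = 6) and 3.85, 3.96, 4.66, 4.26 and 3.73 at Af 96 h plus ozone. It fell by 0.74 ± 0.19 (adjusted p = 0.00233), from the highest group mean of this gene, and the spike-adjusted change was -0.30 ± 0.19 (adjusted p = 0.31).

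Stat6, the transcription factor downstream of Il4ra, fell in C57BL/6 both at Af 24 h and at Af 96 h plus ozone. It was 5.67 to 5.96 in air (median 5.87, n = 6) and 4.93, 5.49, 4.81 and 5.34 at Af 24 h, and 5.69 to 6.06 with ozone (median 5.93, n = 6) and 5.30, 4.89, 5.22, 4.69 and 5.53 at Af 96 h plus ozone. Neither challenged group overlapped its control. It fell by 0.71 ± 0.22 (adjusted p = 0.0217) and by 0.78 ± 0.21 (adjusted p = 0.00285). The spike-adjusted changes were -0.61 ± 0.21 and -0.62 ± 0.22 (adjusted p = 0.034 and 0.0439). The first call was lost without Af 24 h replicate 1 or 4 (adjusted p up to 0.102). In SP-D-/- Stat6 was 5.06 to 5.62 at Af 24 h (median 5.42, n = 6), below every air array (5.82, 5.63, 6.00, 5.90 and 5.82), and was not called. In C57BL/6 at Af 96 h plus ozone all 7 endothelial markers and 4 of 5 alveolar type 1 markers fell as well. Of all genes tested 36.4% were called there. The actin difference averaged 2.87 against 1.72 with ozone alone. The part of these cells and of RNA quality in the falls of Tslp, Il4ra and Stat6 was not tested.

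**Figure D4:**
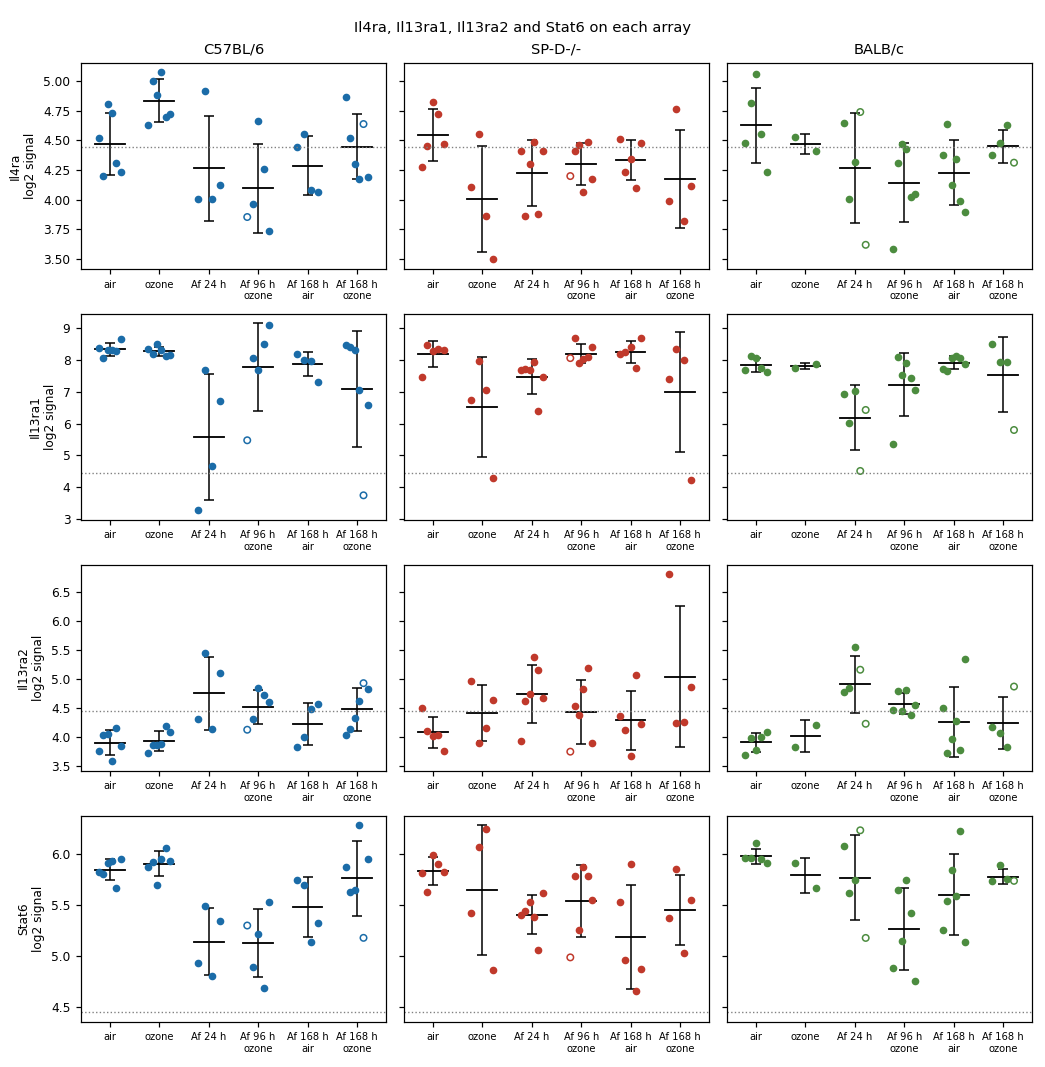
Deposited log2 signal of Il4ra, Il13ra1, Il13ra2 and Stat6 (vertical axes) on each array, by strain and exposure. Points are arrays, open points the doubted arrays, bars the group mean and SD, and the dotted line the background level of 4.45. Il13ra1 at Af 24 h in C57BL/6 runs from 3.27 to 7.67, below all air arrays.

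Strains were also compared directly within each exposure. Against C57BL/6 at Af 96 h plus ozone, Tslp was 1.55 ± 0.54 higher and Il13 0.74 ± 0.26 lower in SP-D-/- (adjusted p = 0.0403 and 0.0404), 2 members called with 16.2% of all genes called. Neither was called in the spike-adjusted fit (0.79 ± 0.41 and -0.53 ± 0.24, adjusted p = 0.298 and 0.206). Each call was lost without any of 9 arrays for Tslp and any of 8 for Il13 (adjusted p up to 0.0951 and 0.125). In BALB/c against C57BL/6, Tslp was 1.81 ± 0.54 higher (adjusted p = 0.0308), the 1 member called with 6.26% of all genes called, a call lost without any of 8 of the 11 arrays (adjusted p up to 0.0806). In the spike-adjusted fit it was 1.51 ± 0.39 higher (adjusted p = 0.00511), Il13 was 0.72 ± 0.22 lower (adjusted p = 0.0223) and Il13ra1 was 1.53 ± 0.45 lower (adjusted p = 0.0149), with 12.6% of all genes called. For Il13ra1, 3 of its other probe sets gave 0.10, 0.03 and 0.37, the opposite direction, from all arrays.

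With ozone alone, Il4ra in SP-D-/- lay 0.83 ± 0.20 lower, set against C57BL/6 (adjusted p = 0.03), at 4.10, 4.55, 3.86 and 3.50 against 4.63 to 5.07, with no overlap. It was the 1 member called, with 0.797% of all genes called, and was not called in the spike-adjusted fit (-0.55 ± 0.18, adjusted p = 0.11), or without any of 6 of the 10 arrays (adjusted p up to 0.307). The mean spike level was 10.38 in that SP-D-/- group and 8.59 in C57BL/6, the actin difference averaged 2.75 and 1.72, and their part in the level of Il4ra was not tested. In air 0 members were called in SP-D-/- or in BALB/c against C57BL/6 (limma, 182 and 541 genes at an unadjusted p under 0.05), where 0.0664% and 0.511% of all genes were called, and 0 in the spike-adjusted fit (0.0929% and 1.09%). At Af 168 h, with air or with ozone, 0 members were called in either strain (between 0.0199% and 0.597% of all genes), and 0 in BALB/c with ozone alone or at Af 24 h (0.146% and 0.385%).

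The responses to Af 96 h plus ozone differed between SP-D-/- and C57BL/6 for 4 members when all arrays were fitted. The difference (SP-D-/- minus C57BL/6) was 2.56 ± 0.79 for Tslp, -1.18 ± 0.38 for Il13, 1.03 ± 0.28 for Il4ra and 2.19 ± 0.87 for Il13ra1 (adjusted p = 0.0157, 0.0182, 0.00812 and 0.0494), with 27.4% of all genes called. In the spike-adjusted fit these were 0.73 ± 0.60, -0.64 ± 0.35, 0.46 ± 0.27 and 0.17 ± 0.70, none was called and 0.737% of all genes were. Without SP-D-/- ozone replicate 5, whose spike level was 11.43, the Tslp, Il13 and Il13ra1 differences were not called (adjusted p = 0.0751, 0.084 and 0.229), and that of Il13ra1 was lost without any of 15 of the 21 arrays. With all arrays no member was called in the other 4 response differences between these strains, where 0% to 0.292% of all genes were called. None was called in the 5 between BALB/c and C57BL/6 either, where 0% to 0.0133% of all genes were called.

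Downstream genes of the axis were read from a list of IL-13 and STAT6 targets. This list and those below were chosen with earlier results of these data known, so their counts are a description only. Of 28 IL-13 and STAT6 target genes on the array 27 were tested, and at Af 24 h 8 rose and 1 fell in C57BL/6 with a median change of 0.82, 7 rose and 1 fell in SP-D-/- with a median of 0.30, and 6 rose and 1 fell in BALB/c with a median of 0.30. The medians of all genes tested were -0.0001, 0.0052 and -0.006, and 16.2%, 4.71% and 12.1% of all genes were called. Slc26a4, which encodes the anion exchanger pendrin of airway epithelium, led in each strain with rises of 4.13 ± 0.60, 3.02 ± 0.57 and 4.36 ± 0.59 in C57BL/6, SP-D-/- and BALB/c. Retnla, a macrophage product induced by IL-4 and IL-13, rose by 2.71 ± 0.31 in C57BL/6 and 4.17 ± 0.31 in BALB/c. Ccl8, a chemokine for eosinophils and monocytes, rose by 2.21 ± 0.64 in SP-D-/- and 3.35 ± 0.67 in BALB/c. Arg1, arginase of alternatively activated macrophages, rose by 2.47 ± 0.59 in C57BL/6, 1.87 ± 0.56 in SP-D-/- and 1.71 ± 0.58 in BALB/c.

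At Af 96 h plus ozone against ozone, 14 of the 27 targets rose and 2 fell in C57BL/6 (median 1.31), 13 rose and 0 fell in SP-D-/- (median 1.26), and 3 rose and 0 fell in BALB/c (median 0.48), where only 2 ozone arrays were available. The medians of all genes were -0.0018, 0.11 and 0.04, and the shares of all genes called differed widely, at 36.4%, 2.58% and 0.0531%. Clca1, a product of mucous cells, rose by 7.14 ± 0.87 in C57BL/6 and 7.52 ± 0.93 in SP-D-/-. Fcgbp, a mucus component, rose by 2.97 ± 0.60 and 4.08 ± 0.64 in the same strains, beside Slc26a4 at 4.26 ± 0.57 in C57BL/6 and Ccl8 at 4.24 ± 0.68 in SP-D-/-. In BALB/c Ccl8 rose by 4.62 ± 0.86, Slc26a4 by 4.39 ± 0.76 and Chil3, a chitinase-like protein of macrophages, by 3.09 ± 0.53. The SP-D-/- targets rose in 13 cases while Il13 itself had 0.04 and no member was called there. At Af 168 h plus air 4, 5 and 7 targets rose in C57BL/6, SP-D-/- and BALB/c and 0 fell (medians 0.73, 0.78 and 0.56), with 1.35%, 1.35% and 1.56% of all genes called, while 0 members were called. Clca1 rose by 6.33 ± 0.87 in BALB/c and 3.52 ± 0.91 in SP-D-/-, and Itln1, an airway lectin, by 2.43 ± 0.55 and Fcgbp by 2.49 ± 0.63 in SP-D-/-. Slc26a4 rose by 3.07 ± 0.60 in C57BL/6 and 4.52 ± 0.57 in BALB/c, Retnla by 2.53 ± 0.31 and 4.25 ± 0.29, and Ccl8 by 2.44 ± 0.68 in C57BL/6. In the spike-adjusted fit the targets that rose numbered 10, 10 and 10 at Af 24 h, 15, 14 and 4 at Af 96 h plus ozone, and 7, 10 and 7 at Af 168 h plus air.

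Of 13 other ligands of type 2 and alarmin responses on the array 9 were tested, and at Af 24 h 3 rose and 1 fell in C57BL/6, 2 rose in SP-D-/- and 2 rose in BALB/c, beside the 16.2%, 4.71% and 12.1% of all genes called. Ccl17, a chemokine for T helper cells, rose by 1.61 ± 0.28, 1.29 ± 0.26 and 0.86 ± 0.27, and Il6, an inflammatory cytokine, by 1.93 ± 0.52, 1.75 ± 0.49 and 1.53 ± 0.51 in C57BL/6, SP-D-/- and BALB/c. Ccl17 in BALB/c was not called in the spike-adjusted fit (0.82, adjusted p = 0.0796). Il18, another epithelial cytokine, fell by 2.03 ± 0.68 in C57BL/6. At Af 96 h plus ozone 2 rose and 3 fell in C57BL/6, where 36.4% of all genes were called, with Ccl22 at -2.01 ± 0.47, Il18 at -1.99 ± 0.64 and Hmgb1 at 1.64 ± 0.43, and in the spike-adjusted fit 0 of the list were called there. None was called in SP-D-/- or BALB/c at that time, or at Af 168 h plus air in the 3 strains.

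Of 11 co-receptors and other receptors on the array 10 were tested. Beside 16.2%, 4.71% and 12.1% of all genes called, none was called with all arrays at Af 24 h in C57BL/6, SP-D-/- and BALB/c. None was called at Af 168 h plus air either, beside 1.35%, 1.35% and 1.56% of all genes. At Af 96 h plus ozone 2 rose and 2 fell in C57BL/6, a share close to the 36.4% of all genes called there, among them Il5ra, the IL-5 receptor, at 1.36 ± 0.48, Osmr, the oncostatin M receptor, at -1.09 ± 0.43 and Il1rap, the co-receptor that IL-33 shares with IL-1, at -0.98 ± 0.31. In the spike-adjusted fit 0 were called there. All 16 signalling and feedback genes were tested. At Af 24 h 1, 2 and 1 rose in C57BL/6, SP-D-/- and BALB/c and none fell, beside the same 16.2%, 4.71% and 12.1%. They were Tyk2, a kinase of the IL-13 receptor, at 0.65 ± 0.22 in C57BL/6, Cish, a feedback inhibitor, at 1.45 ± 0.32 and Stat3 at 0.66 ± 0.18 in SP-D-/-, and Stat3 at 0.54 ± 0.19 in BALB/c. Tyk2 was not called in the spike-adjusted fit (0.47, adjusted p = 0.097). At Af 96 h plus ozone 2 rose and 4 fell in C57BL/6, again a share close to the 36.4% of all genes, with Stat5b at -2.44 ± 0.56, Socs3 at -1.79 ± 0.45 and Jak3 at -1.65 ± 0.41, none of which was called in the spike-adjusted fit. Of 14 type 2 lymphocyte genes on the array 12 were tested. At Af 24 h 2 rose in C57BL/6, 1 rose in SP-D-/-, and 2 rose and 1 fell in BALB/c, beside the same shares. Whether the counts of these lists differ from the shares of all genes was not tested. Arg1, which other cells express too, was called in each strain. The others were Klrg1, a receptor of activated lymphocytes, at 1.01 ± 0.34 in C57BL/6, and Icos, a T cell co-stimulator, at 1.37 ± 0.39 and Id2, a regulator of innate lymphoid cells, at -1.03 ± 0.35 in BALB/c. Neither Icos (0.90, adjusted p = 0.076) nor Id2 (-0.23, adjusted p = 0.73) was called in the spike-adjusted fit, where 2 arrays of that group are left out.

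Genes whose group means followed those of a member most closely over the 18 groups were taken by Pearson's r, as a description. For Il33 they were Cpeb3 (0.77), Socs2 (0.74) and Panct2 (0.74), weaker than for any other tested member. For Tslp they were Clstn2 (0.94), Nid1 (0.94) and Spred2 (0.93), and for Il13 Tns4 (0.94), Dtd2 (0.93) and Batf3 (0.93). For Il4 they were Blvra (0.91), Psd4 (0.88) and Scn10a (0.87), and for Il4ra Dhx32 (0.91), Kcnj8 (0.91) and Snai1 (0.90). For Il13ra1 they were Grsf1 (0.95), Esrp1 (0.93) and Becn1 (0.92), for Il13ra2 Rad51c (0.93), Eef1aknmt (0.92) and Dmp1 (0.92), and for Stat6 Creb3l2 (0.89), Il1rap (0.89) and Tbc1d12 (0.88). Among the members themselves Il13 and Il13ra2 had r = 0.81 over the 18 group means, and Il33 had r between -0.30 and 0.17 with the others. The group means share arrays and signal level, and the r of the group means with the mean spike level was 0.78 for Il13, 0.76 for Il13ra2, -0.74 for Tslp, -0.82 for Il4ra and -0.02 for Il33.

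The members moved with the spike level also among arrays of the same group. Over 89 arrays, as differences from the group means, Pearson's r was -0.74 for Tslp and 0.56 for Il13 (Spearman's rho -0.75 and 0.53), and -0.49 for Il33 and -0.54 for Il13ra1 (rho -0.49 and -0.48). Each had a permutation p of 1e-05, the smallest that 100000 permutations can give. The adjusted p was 1.8e-05 for r and 2.57e-05 for rho over the 18 relations of each kind. The differences were permuted over all 89 arrays and not within groups, so these p-values do not allow for unequal spread between groups. Without the 2 arrays farthest from the median spike level r was -0.72, 0.55, -0.45 and -0.50 for Tslp, Il13, Il33 and Il13ra1. For Il5 r was 0.11 (permutation p = 0.294). The spike level thus differed between arrays in step with Tslp downward and Il13 upward, the same directions as the changes of these genes in C57BL/6 at Af 96 h plus ozone. Tslp lost its call there with the spike level in the fit, and Il13 kept it. The spike level averaged 8.59 with ozone alone and 10.90 at Af 96 h plus ozone in C57BL/6. The parts of spike level and exposure in these changes therefore cannot be told apart.

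**Figure D5:**
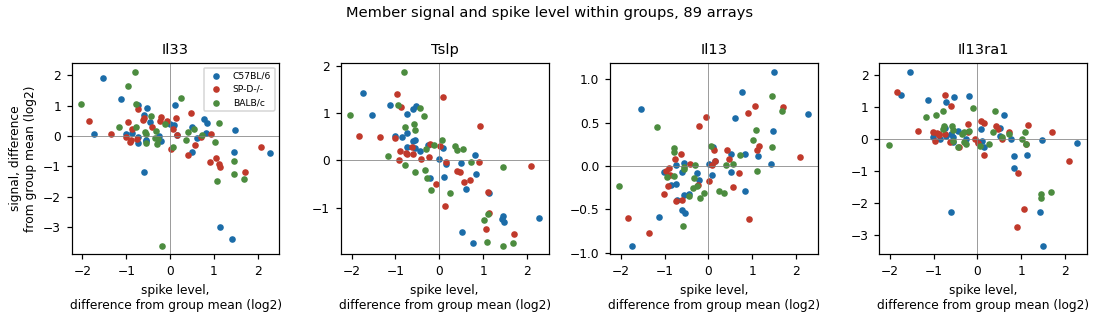
Difference of each array from its group mean in spike level (horizontal axes, log2) and in the signal of Il33, Tslp, Il13 and Il13ra1 (vertical axes, log2), 89 arrays coloured by strain. Tslp goes down with the spike level (r = -0.74) and Il13 goes up (r = 0.56).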

How the data were processed

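Left lung lobe RNA was measured on 89 Affymetrix HT Mouse430PM arrays, amplified with a NuGEN kit per the labels' protocols. The deposited log2 values run from 1.86 to 13.5, and every array has the same median, 4.90. The log base was inferred from that range, and the software and background correction are not given in the sources used here. Which normalization gave the shared median is unknown, and scaling arrays to 1 median can hide changes shared by most genes. The arrays' number limits the precision.

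Of 45141 probe sets, 28898 had 1 gene symbol in the platform annotation, 551 had several, 15692 are unnamed here and 104 are controls. Each of 17097 genes was read from its probe set with the highest mean. A gene was tested if above the 40th percentile of all values (4.45) on at least 4 arrays, which left 15065. limma (3.58.1, R 4.3.3) fitted 18 group means over 89 arrays, with 46 comparisons in 12 families, two-sided, and Benjamini-Hochberg adjustment over all genes tested in each. The fit was tested on simulated data. Alternatives were cyclic loess, the mean of all probe sets, no filter, leaving out the doubted arrays, the spike level and the actin difference as covariates, the compared groups alone, the replicate number as a block, and each array left out in turn. Permutation p-values came from 100000 permutations (scipy 1.17.1).

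Replicate numbers recur between groups. The correlation of same-numbered arrays' deviations was over 0.1 in every pair, with at least 3 pairs, in 2 comparisons, both at Af 168 h. These were ozone against air in C57BL/6 (mean 0.34) and BALB/c against C57BL/6 with air (mean 0.26), and no member was called in them. It was over 0.1 in 5 of 6 pairs for ozone against air in C57BL/6 (mean 0.27). For Af 168 h plus ozone against ozone in C57BL/6, where Il13 was called, it was so in 4 of 6 (mean 0.20). For SP-D-/- against C57BL/6 at Af 24 h it was so in 3 of 4 (mean 0.26). The lowest pair of all, at -0.51, was in ozone against air at Af 168 h in BALB/c.

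The members and lists were chosen with earlier results of these data known. Named genes are the members, the 3 genes most like each tested member over the group means, and up to 3 called genes of each list with the largest change per comparison. Promoters came from RefSeq (GRCm38.p6).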

Additional observations from a re-analysis of the deposited data

Results flagged for a closer look

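In 13 of 153 sets of 4 to 6 arrays, over the 9 members, 1 array lay far from the others of its group by Dixon's criterion, which flags about 1 in 20 sets by chance. For Il33 these were C57BL/6 air replicate 5 at 7.27 (others 7.80 to 8.08), C57BL/6 Af 168 h plus ozone replicate 6 at 5.26 (others 8.33 to 9.47), SP-D-/- air replicate 3 at 9.14 (others 8.02 to 8.27) and SP-D-/- Af 24 h replicate 1 at 7.92 (others 9.08 to 9.72). For Tslp they were C57BL/6 air replicate 5 at 4.73 (others 5.82 to 6.42), C57BL/6 ozone replicate 5 at 4.70 (others 5.96 to 6.35) and SP-D-/- Af 96 h plus ozone replicate 4 at 4.85 (others 5.48 to 5.82). For Il13ra1 they were SP-D-/- air replicate 2 at 7.45 (others 8.27 to 8.47) and SP-D-/- Af 24 h replicate 5 at 6.38 (others 7.47 to 7.93). Il4 stood apart on C57BL/6 ozone replicate 5 at 4.65 (others 3.66 to 3.94), and Il4ra on C57BL/6 Af 24 h replicate 3 at 4.92 (others 4.003 to 4.12). Stat6 stood apart on BALB/c air replicate 3 at 6.11 (others 5.91 to 5.96) and BALB/c Af 168 h plus ozone replicate 4 at 5.89 (others 5.73 to 5.76). C57BL/6 air replicate 5 and ozone replicate 5 had spike levels of 10.61 and 10.86, and C57BL/6 Af 168 h plus ozone replicate 6 had 10.97.

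The response to Af 96 h plus ozone against ozone differed between SP-D-/- and C57BL/6 by limma's test of the difference for Tslp (2.56), Il13 (-1.18), Il4ra (1.03) and Il13ra1 (2.19), from all 89 arrays. None of these was called in the spike-adjusted fit.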

How the results depend on the processing

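Of 22 called member results, 19 were called with cyclic loess, 22 with the mean of all probe sets, 21 without the filter, 20 without the doubted arrays, 6 with the spike level as a covariate, 9 in the spike-adjusted fit, 5 with the actin difference added to it, 17 with the compared groups alone and 9 with the replicate block. The causes of these losses were not tested. The counts that follow, also those with 1 array left out, are summed over the strains or exposures of each kind of comparison. Apart from the spike-adjusted fit, the share of all genes called is not given for these settings. A change in these counts can therefore not be told from a change over all genes. The spike level as a covariate alone took the members called from 8 to 4 at Af 24 h, from 4 to 1 at Af 96 h plus ozone, from 3 to 0 for SP-D-/- against C57BL/6, from 4 to 0 for the response differences and from 1 to 0 at Af 168 h plus ozone, and gave 1 in place of 0 for Af 168 h plus air against Af 24 h. The spike-adjusted fit gave 0 at Af 168 h plus ozone, 1 for SP-D-/- against C57BL/6, 3 in place of 1 for BALB/c against C57BL/6 and 0 response differences. With the actin difference added the counts were 4 at Af 24 h, 0 at Af 168 h plus ozone, 2 for Af 168 h against Af 96 h plus ozone, 1 for SP-D-/- and 3 for BALB/c against C57BL/6, and 0 response differences. Without the doubted arrays they were 0 at Af 168 h plus ozone, 1 for Af 168 h plus air against Af 24 h, 4 for Af 168 h against Af 96 h plus ozone, 5 for SP-D-/- and 2 for BALB/c against C57BL/6. The mean of all probe sets gave 1 for Af 168 h plus air against Af 24 h and 2 for BALB/c against C57BL/6, and cyclic loess gave 2 at Af 168 h plus ozone. The compared groups alone gave 1 for ozone against air, 0 at Af 168 h plus ozone and 2 for Af 168 h against Af 96 h plus ozone. With the replicate block the counts were 1 for ozone against air, 2 at Af 24 h, 0 at Af 168 h plus ozone, 0 for Af 168 h against Af 96 h plus ozone and 1 for SP-D-/- against C57BL/6, and Il33 at Af 96 h plus ozone in C57BL/6 was -0.10. The block could not be fitted for Af 168 h plus ozone against ozone in BALB/c. By the receptor standard 6 members in place of 1 stayed near background.

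Leaving out 1 array at a time gave 0 to 0 members called for ozone against air, 6 to 9 at Af 24 h, 0 to 1 at Af 168 h plus air, 4 to 5 at Af 96 h plus ozone, 0 to 2 at Af 168 h plus ozone, 0 to 0 for ozone at Af 168 h, 0 to 1 for Af 168 h plus air against Af 24 h, 0 to 3 for Af 168 h against Af 96 h plus ozone, 1 to 4 for SP-D-/- and 0 to 2 for BALB/c against C57BL/6, and 1 to 5 and 0 to 0 response differences of SP-D-/- and BALB/c. Il33 changes that crossed 0 ranged from -0.40 to 0.019 for ozone in SP-D-/-, from -0.036 to 1.73 at Af 24 h in C57BL/6, from -0.29 to 1.14 at Af 24 h in BALB/c and from -0.25 to 0.30 at Af 96 h plus ozone in C57BL/6. For ozone in SP-D-/- Il33 was also 0.42 with the spike level, 0.43 in the spike-adjusted fit and 0.60 with the actin difference added, against -0.23 from all arrays. Other probe sets of Il13ra1 gave 0.078 at Af 24 h in C57BL/6 and 0.10, 0.032 and 0.37 for BALB/c against C57BL/6 at Af 96 h plus ozone, and its response difference was -0.34 with the actin difference added.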
